A study of Rattus norvegicus with 12 samples.

Results

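The carboxylesterase genes of the rat ovary were examined in 12 RNA-seq libraries, 1 per rat, with 4 rats in each of 3 groups (control, PCOS and PCOS-MV). The 10 names Ces1c, Ces1d, Ces1e, Ces1f, Ces2c, Ces2e, Ces2g, Ces2h, Ces3a and Ces5a were looked up among the gene names of the deposited expression table, which holds 19730 genes. Of these names, 6 had a row (Ces1d, Ces1f, Ces2c, Ces2g, Ces2h and Ces5a), and the other 4 (Ces1c, Ces1e, Ces2e and Ces3a) were not analysed here. The family was chosen by the FPKM of Ces1d, which in PCOS libraries far exceeded that of control libraries, and the question asked was whether its relatives moved with it. The PCOS vs control values of the family are therefore given as a description, with no test, and so is the fall of Ces1d from its PCOS level.

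All rats were wild type Sprague Dawley females of post natal week 15. Control rats were untreated and, per the study's methods, ate standard food. Rats of the PCOS group, the model of polycystic ovary syndrome, received letrozole, an inhibitor of the aromatase that makes estrogen, for 30 days, together with a high-fat diet per the methods. PCOS-MV rats received the same and then mogroside V, a sweet triterpene glycoside of monk fruit, for 30 days. Letrozole and diet were given together and cannot be told apart. The methods describe the choice of model rats by a vaginal cytology that stayed in metestrus and diestrus. The cycle stage of each rat at collection was not given in the sources used here.

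Carboxylesterases are serine hydrolases that split esters, thioesters and amides, among them many drugs, cholesteryl esters and stored triacylglycerol. Most members carry a signal peptide and work in the lumen of the endoplasmic reticulum of liver, intestine and adipose tissue. In rodents the Ces1 genes arose by tandem duplication and stand side by side, so that their transcripts are similar in sequence. Ces1d encodes the enzyme known as triacylglycerol hydrolase. Ces1e encodes egasyn, which retains beta-glucuronidase in the endoplasmic reticulum, and Ces1c encodes the esterase of rodent plasma.

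The Ces1 genes lay on chromosome 19, where Ces1d (ENSRNOG00000015519) spanned 15033108 to 15239821 and Ces1f (ENSRNOG00000015438) spanned 15081158 to 15335002 on the plus strand, in the coordinates of the authors' file, which names no build. In RefSeq (GRCr8) the genes of this cluster follow each other as Ces1f, Ces1e, Ces1d, Ces1c and Ces1a. The 250 bases before the start of each of the 5 are shown because Ces1d, Ces1f and Ces1a were the family genes whose PCOS values all lay above the control values. They were read 5′ to 3′ on the plus strand from chr19:29969383-29969632 for Ces1f, chr19:30005923-30006172 for Ces1e, chr19:30046244-30046493 for Ces1d, chr19:30099197-30099446 for Ces1c and chr19:30132428-30132677 for Ces1a. Capitals mark matches, on either strand, to the letters CCAAT of the NF-Y motif, to the GATA factor motif AGATAA, or to a form of the C/EBP motif written TTGCNNAA, and no matches overlapped in these 5 sequences.
Ces1f: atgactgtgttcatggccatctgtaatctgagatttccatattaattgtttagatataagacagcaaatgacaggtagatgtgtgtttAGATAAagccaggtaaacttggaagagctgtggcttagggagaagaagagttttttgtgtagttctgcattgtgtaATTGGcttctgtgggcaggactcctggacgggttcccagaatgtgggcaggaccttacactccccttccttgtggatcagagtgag
Ces1e: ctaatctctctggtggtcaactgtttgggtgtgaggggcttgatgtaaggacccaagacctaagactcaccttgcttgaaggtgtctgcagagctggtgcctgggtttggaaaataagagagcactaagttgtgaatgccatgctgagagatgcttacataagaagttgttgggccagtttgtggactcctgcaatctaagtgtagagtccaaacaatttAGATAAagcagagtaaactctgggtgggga
Ces1d: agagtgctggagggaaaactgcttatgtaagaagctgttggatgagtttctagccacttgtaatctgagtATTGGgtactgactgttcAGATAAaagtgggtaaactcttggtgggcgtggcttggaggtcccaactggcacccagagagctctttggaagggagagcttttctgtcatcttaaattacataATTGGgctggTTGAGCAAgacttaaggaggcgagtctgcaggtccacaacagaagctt
Ces1c: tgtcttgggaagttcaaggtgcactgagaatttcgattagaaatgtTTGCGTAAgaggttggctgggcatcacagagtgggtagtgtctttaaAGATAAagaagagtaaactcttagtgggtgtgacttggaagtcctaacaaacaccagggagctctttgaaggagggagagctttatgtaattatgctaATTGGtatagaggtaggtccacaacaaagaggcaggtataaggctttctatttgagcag
Ces1a: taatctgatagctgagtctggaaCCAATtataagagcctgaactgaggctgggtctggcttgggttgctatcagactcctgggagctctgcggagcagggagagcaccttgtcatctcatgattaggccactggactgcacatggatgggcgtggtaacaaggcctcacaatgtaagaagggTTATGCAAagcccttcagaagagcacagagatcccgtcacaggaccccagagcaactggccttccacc

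Aligned with gaps, the Ces1d and Ces1c sequences shared 157 identical bases, 62.8% of the 250, which was the highest identity within the Ces1 cluster. Ces1d and Ces1f shared 54% and Ces1d and Ces1a 52.8%. The 58 pairs of different subfamilies shared 47.2% to 57.2%, which among the Ces1 pairs only Ces1c with Ces1d and with Ces1f (58.4%) exceeded. The motif AGATAA stood 162 bases before the start in both Ces1d and Ces1f, 157 bases before it in Ces1c and 30 bases before it in Ces1e, while Ces1a had no match. It matched 4 of the 13 carboxylesterase promoters in RefSeq, against 10.3% of 33469 promoters of the same length. CCAAT matched 2 times in Ces1d, at 180 and 58 bases before the start on the minus strand, and in 9 of the 13 promoters, against 34% of all. The C/EBP form matched in Ces1d at 48 bases before the start and in 6 of the 13, against 9.22% of all. Of the other motifs searched, AGGTCA matched only in Ces3a and Ces4a, with CA before it only in Ces3a (where it overlapped a C/EBP match), GGGCGG only in Ces2h, and AGGTCA repeated after 1 base (DR1) in none of the 13. The shares over all promoters were 14.1% for AGGTCA, 1.33% with CA before it, 30.5% for GGGCGG and 0.0508% for DR1. A match is a match of letters only. The 13 promoters belong to related genes and are not independent, so the shares set beside them are no test of enrichment.

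Expression was deposited as FPKM, fragments scaled by gene length and by library depth, which can be set side by side between genes. The steps between the lowest values put the depth of the libraries at an estimated 30.2 to 36.9 M fragments. Some values stood at fractions of a fragment, so whole reads were not recovered and no count test was run. A value of 0 is given as listed at 0. Differences were tested with limma, a linear model that shares its estimate of the spread across genes, and a gene is called where its adjusted p is under 0.05. Before the log2 a pseudocount of 1 was added to each FPKM, so that log2 differences of low genes are smaller than their fold changes. The labelled tissue was checked by its markers, and the summed FPKM of the 6 granulosa markers ranged from 569 to 1481 and that of the 7 theca and interstitial markers from 143 to 3411 over the libraries. In a whole ovary, fewer cells of a type and less RNA per cell cannot be told apart.

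Ces1d was the one carboxylesterase with a high level. Its FPKM was 7.74, 1.59, 6.15 and 7.32 in Control 1 to 4, 311, 357, 292 and 316 in PCOS 1 to 4, and 7.95, 2.05, 3.14 and 2.24 in PCOS-MV 1 to 4. All PCOS libraries lay far above the other 8, and the control and PCOS-MV libraries overlapped. The group means were 5.70 ± 2.82, 319 ± 27.2 and 3.84 ± 2.78 FPKM (SD, n = 4 each). The PCOS mean was 55.9 times the control mean and 82.9 times the PCOS-MV mean. On the log2(FPKM + 1) scale, the difference was 5.72 (SE 0.35) for PCOS minus control, rank 3 from the top of 13430 genes, and -6.19 (SE 0.31) for PCOS-MV minus PCOS, rank 2 from the bottom. In each PCOS library Ces1d stood between rank 119 and rank 143 of the 19730 genes by FPKM, and between rank 7557 and rank 12317 in the other libraries.

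The family was not chosen by PCOS-MV vs control, but the control values of Ces1d were part of the choice. The p-values of Ces1d in this comparison are therefore not free of it. The Ces1d difference for PCOS-MV minus control was -0.47 (SE 0.47, 95% interval -1.54 to 0.60) on the log2 scale, with an adjusted p of 0.767 from limma. The exact permutation test of 4 against 4 gave p = 0.4857, two-sided. Only 1 of the 13430 genes was called in that comparison (0.00745%), and 1142 (8.5%) had an unadjusted p under 0.05. Control 2 was the lowest control library, at 1.59 FPKM, and PCOS-MV 1 the highest of its group, at 7.95.

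Ces1f moved in the same direction as Ces1d at a far lower level. This close relative, whose product also hydrolyses triacylglycerol in mice, had an FPKM of 1.01, 0.252, 1.66 and 0.301 in Control 1 to 4, 6.26, 4.45, 3.59 and 5.46 in PCOS 1 to 4, and 0.292, 0.934, 0.0456 and 1.98 in PCOS-MV 1 to 4. The lowest PCOS library was above the highest library of both other groups. The means were 0.806 ± 0.666, 4.94 ± 1.17 and 0.814 ± 0.865 FPKM (SD, n = 4 each). The PCOS mean was 6.13 times the control mean, a log2 difference of 1.77 (SE 0.26). Ces1f fell by 1.81 (SE 0.31) on the log2 scale in the PCOS-MV group relative to the PCOS group, with an adjusted p of 0.00426 from limma, and was lower in 4 of 4 libraries. Between PCOS-MV and control the Ces1f difference was -0.04 (SE 0.37, 95% interval -0.90 to 0.82, adjusted p = 0.984 from limma). Ces1f passed the filter of a mean of 1 FPKM only through its PCOS libraries. In a fit with no filter, its adjusted p for PCOS-MV vs PCOS was 0.0119 from limma. Both of these p-values for PCOS-MV vs PCOS rest on the PCOS libraries, whose Ces1d values chose the family. They are not free of that choice.

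The share of Ces1f relative to Ces1d was lowest in the PCOS group, with an overlap with the PCOS-MV libraries. Ces1f was 1.23% to 2.01% of the Ces1d FPKM in the PCOS libraries, 4.11% to 26.9% in the control libraries and 1.45% to 88.5% in the PCOS-MV libraries. Ces1d made up 97.8% to 98.7% of the summed FPKM of the 10 genes with a Ces name in the PCOS group, against 60.7% to 91.0% in the control and 51.6% to 93.8% in the PCOS-MV group. Within the PCOS group the order of the libraries was not shared. Ces1d was highest in PCOS 2 and Ces1f in PCOS 1, while both were lowest in PCOS 3.

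The Ces1d and Ces1f rows of the file overlapped on the genome. Ces1f was annotated with 7 transcripts, of which 1 ran from 15094309 to 15334886 and enclosed the whole body of the shorter Ces1d transcripts, and 1 lay beyond Ces1d from 15294248. One of the 3 Ces1d transcripts began 162.5 kb upstream of the other ones, before the first Ces1f exon. RefSeq places Ces1e and Ces1c in this interval, on either side of Ces1d. Whether fragments of Ces1e and Ces1c were counted in the Ces1f row, and how fragments shared by similar genes were divided, was not tested, so the Ces1f values are uncertain in origin. The Ces1d transcript that began upstream spanned most of the Ces1f transcripts. Whether fragments of its neighbours were counted in the Ces1d row was not tested either.

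**Figure D1:**
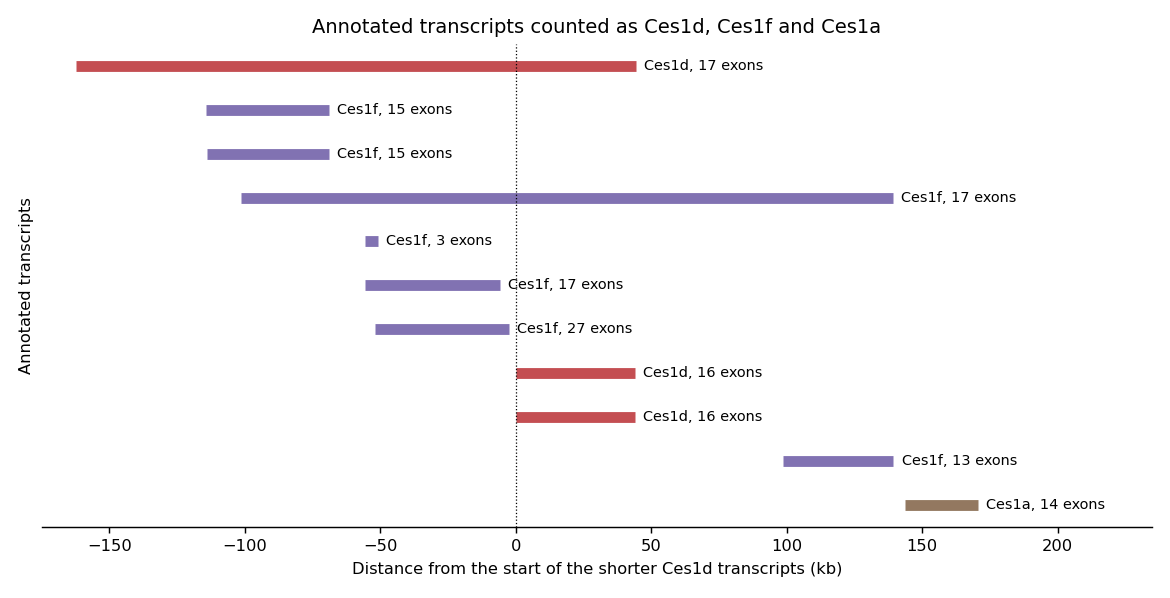
Extent of the annotated transcripts of Ces1d (3), Ces1f (7) and Ces1a (1) on chromosome 19, drawn to scale, with the x axis in kb from the start of the shorter Ces1d transcripts. The Ces1f bars stand on both sides of Ces1d, 1 of them passes across it, and 1 Ces1d bar begins at -162.5 kb.

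Ces1a, the last gene of the cluster and no member of the list, was barely detected. Its FPKM was listed at 0 in Control 1, 3 and 4 and was 0.0148 in Control 2. The PCOS libraries stood at 0.224, 0.0721, 0.117 and 0.212, and the PCOS-MV libraries were listed at 0 except PCOS-MV 3 at 0.0139. The PCOS values correspond to an estimated 13.5, 4.7, 6.7 and 14.3 fragments, and no other library exceeded 1.0. All PCOS libraries were thus above the other 8, at a level set by few fragments. For PCOS-MV vs PCOS the exact permutation test gave p = 0.0286, the smallest that 4 against 4 allows, and the unfiltered fit gave an adjusted p of 0.0188 from limma. Over all genes, 11.1% lay wholly lower in this comparison and 8.6% were called lower in that fit. Both p-values rest on the PCOS libraries, whose Ces1d values chose the family. How fragments shared by Ces1a and Ces1d were divided was not tested, so the Ces1a values are also uncertain in origin.

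The Ces2 members did not follow Ces1d. Ces2c (ENSRNOG00000036571, chromosome 1, 282638017 to 282702424), an esterase best known from intestine and liver, had an FPKM of 0.0697, 0.191, 1.47 and 0.0957 in Control 1 to 4. Its PCOS libraries were at 0.107, 0.0666, 0.0341 and 0.0510 and its PCOS-MV libraries at 0.145, 0.0307, 0.0525 and 0.0598. Control 3 was the only library above 0.2 FPKM, and the groups overlapped in every comparison. Ces2g (ENSRNOG00000013808, chromosome 19, 37025375 to 37034285) stood at 0.0712, 0.0234, 0.437 and 0.0750 FPKM in Control 1 to 4. It was 0.0247 in PCOS 1, 0.00762 in PCOS 2, listed at 0 in PCOS 3 and 4, and 0.0387, 0.0116, 0.0285 and 0.0151 in PCOS-MV 1 to 4. Control 3 was again the highest library, with an estimated 52.9 fragments, against 9.4 or fewer in each of the other 11.

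Control 3 also held the markers of ciliated oviduct epithelium. The summed FPKM of the 4 markers with a row (Tekt1, Rsph1, Pifo and Dnah5) was 22.5 in Control 3, 4.62 in Control 4 and between 1.82 and 3.44 in the other 10 libraries. Pifo was 5.51 FPKM in Control 3 and listed at 0 in all PCOS and PCOS-MV libraries. Ces4a was highest among the control libraries there too. The part of such tissue in these values was not tested. For PCOS-MV vs PCOS, a comparison without the control libraries, the exact permutation test gave p = 0.83 for Ces2c and p = 0.114 for Ces2g. For PCOS-MV vs control the exact test gave 0.171 and 0.0857.

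Ces2h and Ces5a were at the limit of detection. Ces2h (ENSRNOG00000039079, chromosome 19, 37052556 to 37067156) was 0.0449 FPKM in Control 1 and 0.0624 in Control 3, an estimated 3.0 and 4.0 fragments, and was listed at 0 in the other 10 libraries. Ces5a (ENSRNOG00000025710, chromosome 19, 12097632 to 12136240), which encodes the secreted esterase cauxin of kidney and epididymis, was 0.0259 FPKM in Control 2 and 0.0173 in Control 4, an estimated 1.4 and 0.9 fragments. It was listed at 0 elsewhere. Neither gene had a level at which a difference between the groups could be detected.

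Among the 6 members with a row, PCOS lay wholly above control for 2 (Ces1d and Ces1f) and wholly below it for none. Over all genes of the table these shares were 11% and 14.2%. Since the values of that comparison chose the family, nothing is read from this count. In PCOS-MV vs PCOS the same 2 members lay wholly below, against 11.1% of all genes, and in PCOS-MV vs control no member was without overlap, against 2.15% of all genes wholly above and 2.78% wholly below. The PCOS libraries are shared by the first 2 comparisons. Of the 6 members, 4 had a mean under 1 FPKM and were not in the filtered fit. The background of calls in that fit was 27.4% of the genes for PCOS vs control, with 11.9% higher and 15.6% lower. It was 25.7% for PCOS-MV vs PCOS, with 14.3% higher and 11.4% lower. Both directions together, higher in PCOS and then lower in PCOS-MV, were called for 7.64% of the genes.

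**Figure D2:**
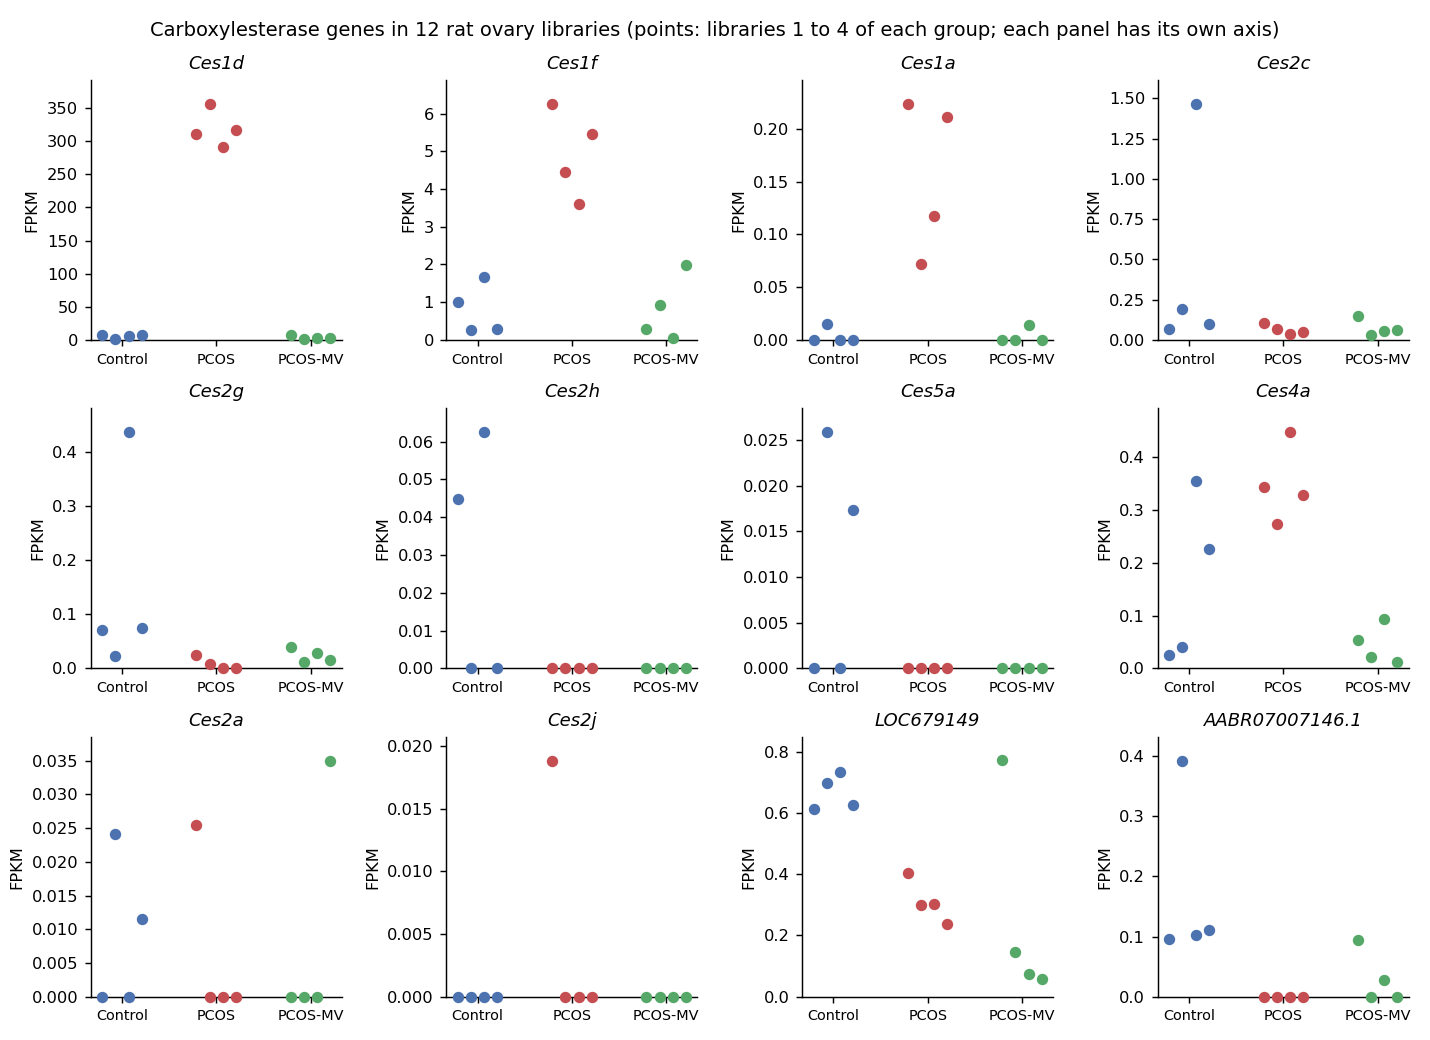
FPKM of the 6 members and of 6 further carboxylesterase genes in each library, with groups on the x axis, 1 point per library in the order 1 to 4 and a separate linear y axis from 0 in each panel. Ces1d reaches 357 FPKM in PCOS 2, Ces1f 6.26 in PCOS 1 and Ces1a 0.224 in PCOS 1, and in these 3 panels all PCOS points lie above the rest, while Ces2c and Ces2g each show 1 high point in Control 3.

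The file held 4 further genes with a Ces name and 2 unnamed genes described as type B carboxylesterases of no other family. Ces4a, next to Ces2g and Ces2h, had 0.0248, 0.0400, 0.354 and 0.227 FPKM in Control 1 to 4, 0.343, 0.275, 0.448 and 0.329 in PCOS 1 to 4, and 0.0545, 0.0218, 0.0935 and 0.0118 in PCOS-MV 1 to 4. Its PCOS and control values overlapped. The PCOS-MV libraries lay wholly below the PCOS libraries, with an estimated 1.0 to 8.4 fragments against 23.1 to 33.0. The exact permutation test of that difference gave p = 0.0286, and the unfiltered limma fit gave an adjusted p of 0.00226, where 8.6% of the 19730 genes were called lower. As for Ces1a, both p-values rest on the PCOS libraries, whose Ces1d values chose the family. Ces2a reached at most 0.0350 FPKM, and Ces2j was above 0 only in PCOS 1, at 0.0188 FPKM.

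LOC679149, which RefSeq names Ces2b, was lower in the PCOS than in the control libraries. Its FPKM was 0.612, 0.698, 0.735 and 0.626 in Control 1 to 4, 0.405, 0.301, 0.301 and 0.237 in PCOS 1 to 4, and 0.772, 0.145, 0.0760 and 0.0581 in PCOS-MV 1 to 4. All PCOS libraries lay below all control libraries, and PCOS-MV 1 lay above them all while the other 3 PCOS-MV libraries lay below every PCOS library. The exact permutation test gave p = 0.714 for PCOS-MV vs PCOS and p = 0.143 for PCOS-MV vs control. AABR07007146.1, downstream of Ces2c on chromosome 1, had 0.0962, 0.392, 0.103 and 0.111 FPKM in Control 1 to 4. It was listed at 0 in all PCOS libraries and in PCOS-MV 2 and 4, with 0.0942 in PCOS-MV 1 and 0.0287 in PCOS-MV 3. It was wholly lower in PCOS-MV than in control, where the exact permutation test gave p = 0.0286, at an estimated 3.0 to 12.4 fragments in the control and at most 3.0 in the PCOS-MV libraries. Of the 12 carboxylesterase genes together, 3 were wholly higher and 2 wholly lower in PCOS than in control, against 11% and 14.2% of all genes. In PCOS-MV vs PCOS 4 were wholly lower and 0 wholly higher, against 11.1% and 12.8%. In PCOS-MV vs control 1 was wholly lower and 0 wholly higher, against 2.78% and 2.15%.

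The genes whose pattern over the 12 libraries was most like that of Ces1d were Ass1, Insl3, RGD1564463, Ddc and Cyp17a1. Likeness was the root mean square difference of log2(FPKM + 1) after each gene was centred on its mean, and it was 0.562 for Ass1 and 1.11 for Cyp17a1, with a median of 2.89 over all genes tested. Ass1, an enzyme of the urea cycle and of arginine synthesis, ranged from 11.4 to 30.9 FPKM in the control, 708 to 943 in the PCOS and 11.1 to 27.1 in the PCOS-MV group. Insl3, a peptide hormone of theca and Leydig cells, ranged from 1.76 to 8.84, from 906 to 1188 and from 4.91 to 14.5 FPKM. Cyp17a1, the androgen-making enzyme of theca cells, ranged from 17.0 to 63.6, from 655 to 1866 and from 1.57 to 88.1 FPKM. RGD1564463 ranged from 21.1 to 48.8 FPKM in the PCOS group and did not exceed 1.22 elsewhere, and Ddc, which makes dopamine and serotonin, ranged from 10.4 to 28.6 and did not exceed 0.681 elsewhere.

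In PCOS-MV 1, where Ces1d was highest of its group at 7.95 FPKM, Insl3 was also highest of the group at 14.5 and Cyp17a1 at 88.1. In Control 2, where Ces1d was lowest of its group at 1.59 FPKM, Insl3 was lowest of the group at 1.76 and Ddc at 0.139, while Ass1 (11.4) and Cyp17a1 (17.0) were lowest in Control 3 and RGD1564463 (0.192) in Control 4. All were chosen for likeness over these same libraries. For Ces1f the 3 most alike genes were Nat8f2, Rprml and Lnx1, at 0.355 to 0.357, with a median of 0.984 over all genes tested. They were other genes than those most like Ces1d. Nat8f2 ranged from 1.87 to 3.39, from 8.52 to 12.3 and from 2.06 to 3.77 FPKM in the 3 groups.

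**Figure D3:**
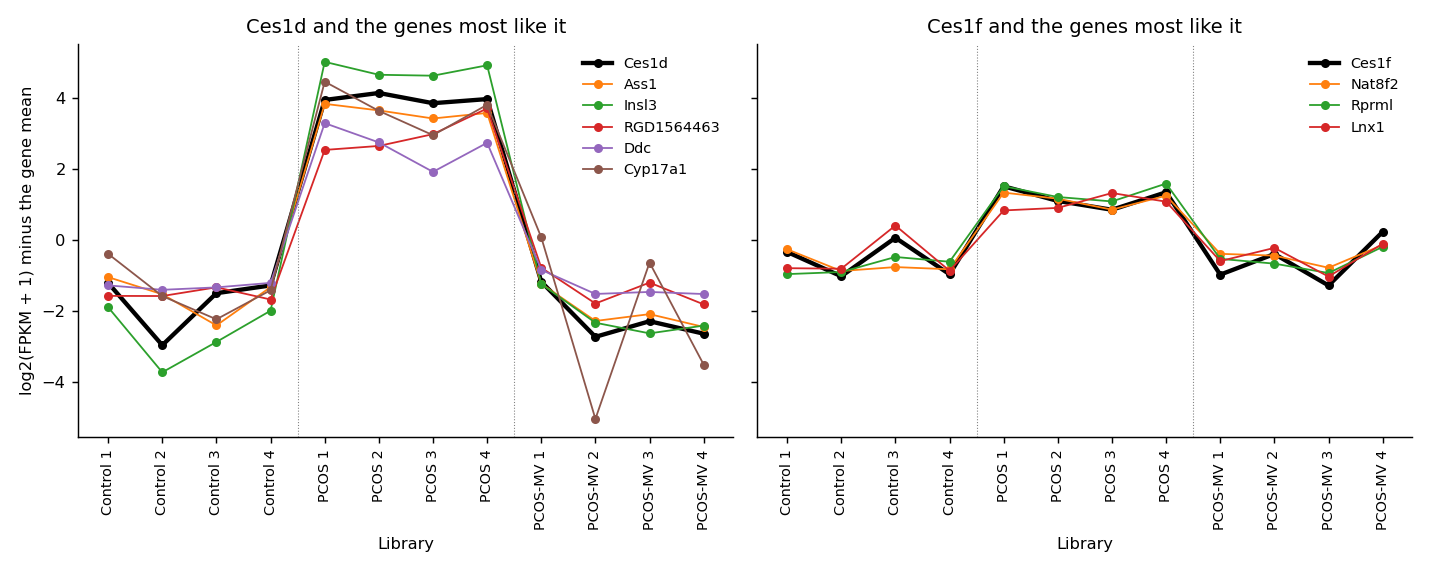
log2(FPKM + 1) minus the mean of each gene (y axis) in the 12 libraries (x axis) for Ces1d with its 5 most alike genes and for Ces1f with its 3. Each curve stands high in the PCOS libraries, where the Ces1d mean is 5.72 and the Ces1f mean 1.77 above control, and Cyp17a1 departs most from Ces1d in PCOS-MV 2.

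Genes near the carboxylesterase loci were counted within 200 kb. Of all genes tested, 11.9% were called higher and 15.6% lower in PCOS vs control, and 14.3% and 11.4% in PCOS-MV vs PCOS. Around the Ces1 cluster there were 5 genes of other families, of which 3 were tested and none was called higher in PCOS than in control. Lpcat2, which remodels lysophosphatidylcholine, was called in the opposite direction to Ces1d. It fell by 1.65 (SE 0.19, adjusted p = 0.000429 from limma), from 9.45 ± 2.92 to 2.27 ± 0.484 FPKM (SD, n = 4), and rose by 1.14 (SE 0.15, adjusted p = 0.00142 from limma) in PCOS-MV relative to PCOS. Around Ces2g and Ces2h there were 13 other genes. Of the 12 tested, 2 (Nol3 and Exoc3l1) were higher and 1 (AABR07072639.2) was lower in PCOS than in control, and 1 (Tradd) was higher and 1 (Exoc3l1) lower in PCOS-MV than in PCOS. The call of AABR07072639.2 was lost without PCOS 2 or PCOS 4, with the replicate block and in the model of 12 libraries, that of Tradd without PCOS 2, PCOS 3 or PCOS-MV 4, and that of Nol3 in the model of 12 libraries. None of the 2 tested genes near Ces2c was called in either comparison, and no other gene of the deposited expression table lay within 200 kb of Ces5a.

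Adipose tissue and liver, which are rich in carboxylesterase, were read from their markers. Among the 7 adipocyte markers, all 4 tested fell in the PCOS group, against 15.6% of all genes tested. With 1 library left out, 3 to 4 of them were called lower. The sum of the 7 was 34.2 to 107 FPKM in the control, 15.7 to 28.3 in the PCOS and 18.4 to 48.2 in the PCOS-MV group. One PCOS-MV vs PCOS difference was called, a rise of Fabp4, which was lost without PCOS 3 (adjusted p = 0.0532, limma). Adipoq, which marks adipocytes, was 3.68 to 26.0 FPKM in the control, 0.654 to 2.95 in the PCOS and 0.845 to 1.70 in the PCOS-MV group. Of the 6 hepatocyte markers 1 was tested, Apoa1, and it fell by 1.41 (SE 0.24, adjusted p = 0.00317 from limma) in PCOS vs control and rose again in PCOS-MV vs PCOS. Alb was listed at 0 in PCOS 1, 3 and 4 and was 4.33 FPKM in PCOS 2, the library with the highest Ces1d, and 0.0680 or less elsewhere. Without PCOS 2 the Ces1d difference was 5.66 for PCOS minus control. The part of adipose tissue or liver in the Ces1d values was not tested.

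Of the 7 markers of theca and interstitial cells, 4 rose in PCOS vs control and fell in PCOS-MV vs PCOS, and 2 of these, Insl3 and Cyp17a1, were already chosen as most like Ces1d. In all, 5 rose and 1 fell in PCOS vs control. Tcf21 rose only. With 1 library left out, 4 to 5 of the rises were called, and the call that was lost was that of Tcf21. Bmp4 was not called, and the fall of Ptch1 (-0.43) was lost with the replicate block and without Control 2, 3 or 4 or PCOS 2, 3 or 4. The 4 falls in PCOS-MV vs PCOS were those of Insl3 (-6.96), Cyp17a1 (-6.00), Lhcgr (-1.89, called under 8 of 13 alternatives and not without PCOS 1, PCOS 2, PCOS 4 or PCOS-MV 4) and Nr2f2 (-0.57 on the log2 scale). Of the 6 granulosa markers 4 rose in PCOS and 3 fell in PCOS-MV, with Cyp19a1 at -2.81. With 1 library left out, 2 to 4 were called lower and 0 to 1 higher in PCOS-MV vs PCOS. In PCOS vs control 4 stayed higher and 0 to 1 were called lower. Of the 6 luteal markers 3 fell and 1 rose in PCOS vs control and 2 rose in PCOS-MV vs PCOS, and the 4 endothelial markers gave the same counts. The 1 luteal rise in PCOS was lost without Control 4 or PCOS 1, 2 or 4 and in the model of 12 libraries, and the 1 endothelial rise without Control 2 or PCOS 1 or 4. The falls in PCOS numbered 2 to 4 for luteal and 2 to 3 for endothelial markers with 1 library left out. Of the 7 macrophage markers 2 rose in PCOS, and 2 fell (1 without PCOS 4) and 1 rose in PCOS-MV vs PCOS. The 1 ciliated marker tested was not called in either comparison. Beside these marker counts, 11.9% of all genes tested rose and 15.6% fell in PCOS vs control, and 14.3% rose and 11.4% fell in PCOS-MV vs PCOS. The part of cell composition in the Ces1d values was not tested.

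**Figure D4:**
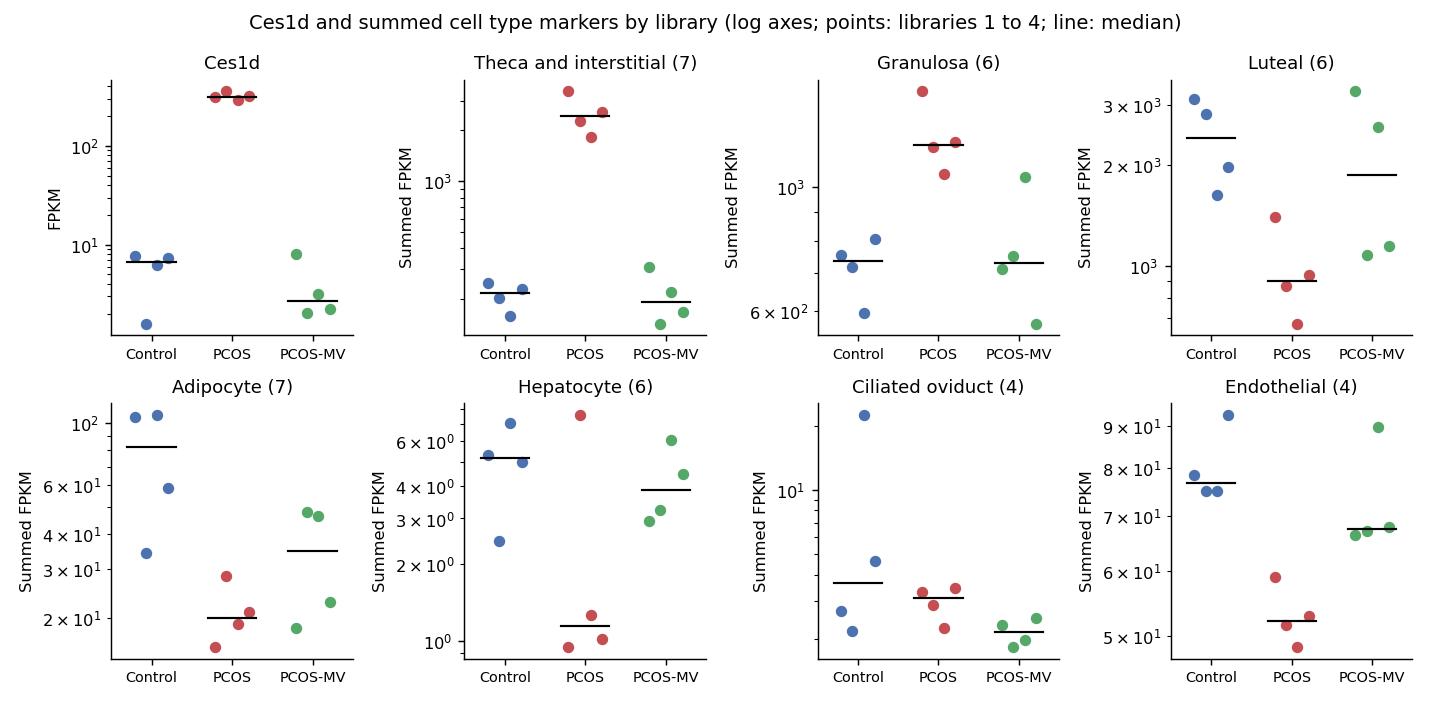
FPKM of Ces1d and summed FPKM of 7 marker lists in each library (log y axes, groups on the x axis, 1 point per library, line at the median; the number of markers is in each panel title). The theca and interstitial sum is 1830 to 3411 in the PCOS group and at most 311 elsewhere, the adipocyte sum is lowest in the PCOS group at 15.7 in PCOS 1, and the ciliated oviduct sum stands out in Control 3 at 22.5.

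Enzymes that work beside carboxylesterases were then set beside the family. Of 27 tested genes of xenobiotic metabolism, 16 rose and 3 fell in PCOS vs control, with a median log2 difference of 0.75 against -0.03 over all genes. In PCOS-MV vs PCOS 14 fell and 4 rose, with a median of -0.33 against 0.03. Over all genes tested, 11.9% rose and 15.6% fell in PCOS vs control, and 11.4% fell and 14.3% rose in PCOS-MV vs PCOS. The 4 rises became 1 without PCOS 1, 2 or 4 and 2 without PCOS 3, PCOS-MV 2 or PCOS-MV 4. Adh1, an alcohol dehydrogenase, had 9.12 ± 4.999, 725 ± 159 and 21.3 ± 8.08 FPKM in control, PCOS and then PCOS-MV rats (SD, n = 4 each) and fell by 5.08 (SE 0.28, adjusted p = 3.04e-05 from limma) in PCOS-MV vs PCOS. Cyp1b1, Ephx1 and Ugt1a1, enzymes of oxidation, epoxide hydrolysis and glucuronidation, had differences of -3.60, -3.30 and -2.70 there, all called. These 4 genes had the largest differences among those called there.

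Enzymes that make or split lipid esters, among them the triacylglycerol that Ces1d splits, mostly differed in the opposite direction. Of 16 tested genes, 10 fell and 1 rose in PCOS vs control (median -0.44), against 15.6% and 11.9% of all genes tested. In PCOS-MV vs PCOS 8 rose and 1 fell (median 0.49), against 14.3% and 11.4%. Mgll, the monoacylglycerol lipase, had 36.8 ± 6.70, 15.4 ± 1.99 and 40.6 ± 17.4 FPKM in the 3 groups (SD, n = 4 each) and rose by 1.27 (SE 0.24, adjusted p = 0.00624 from limma) in PCOS-MV vs PCOS. Lipg, the endothelial lipase, rose by 1.30 (not called without PCOS 2 or PCOS 3, adjusted p up to 0.0577, limma) and Soat1, which makes cholesteryl esters, by 1.02. Lcat, which esterifies cholesterol in plasma, was the exception among the called genes and fell by 0.83. The 4 genes of this list with a mean under 1 FPKM were not tested. Lipe and Pnpla2, the classical triacylglycerol lipases of adipose tissue, had differences of -0.58 and -0.35 in PCOS vs control, both called, with adjusted p of 0.0491 and 0.0396 from limma. These calls were weak, since Lipe was called under 4 and Pnpla2 under 5 of the 13 alternative settings, with adjusted p up to 0.124 and 0.103. In PCOS-MV vs PCOS Lipe rose by 0.78 (SE 0.12, adjusted p = 0.00278 from limma) and was called under all 13 alternatives. Pnpla2 was not called there (0.23, SE 0.08, adjusted p = 0.0794 from limma).

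Relatives that share the esterase fold showed small differences. Bche, the plasma cholinesterase, was 5.91 ± 1.74 FPKM in the control and 3.48 ± 0.576 in the PCOS group (SD, n = 4) and fell by 0.60 (SE 0.18, adjusted p = 0.0379 from limma), a call that was lost in the fit with no filter (adjusted p = 0.0681) and without Control 2, Control 4, PCOS 1, PCOS 3 or PCOS 4 (adjusted p = 0.0751 to 0.0960, limma). In PCOS-MV vs PCOS its difference was -0.09 (SE 0.14, 95% interval -0.41 to 0.24). Neither neuroligin tested, Nlgn2 or Nlgn3, was called, although Nlgn2 was called higher in PCOS without Control 3 (adjusted p = 0.0111, limma). Ache, Cel, Tg and Nlgn1 had means under 1 FPKM. Of the acyl-protein thioesterases, which the file also describes as carboxylesterases, Lypla2 fell by 0.33 (SE 0.07) in PCOS and rose by 0.45 (SE 0.07) in PCOS-MV vs PCOS, with adjusted p of 0.00698 and 0.00188 from limma. Lypla1 and Lyplal1 were not called in either comparison. Lypla1 was called lower in PCOS without Control 3 (adjusted p = 0.0241, limma) or with the replicate block (0.0326), and higher in PCOS-MV vs PCOS without PCOS-MV 4 (0.0407).

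Of 14 factors of carboxylesterase genes and steroid cells with a row, 4 had a mean under 1 FPKM. Hnf4a did not exceed 0.0734 FPKM, Nr1i2 (the pregnane X receptor) 0.318 and Nr1i3 (the constitutive androstane receptor) 0.341 in any library. Nr1h4, the bile acid receptor FXR, was 0.457, 0.336, 0.555 and 0.498 FPKM in Control 1 to 4, 1.204, 1.12, 0.875 and 1.11 in PCOS 1 to 4, and 0.352, 0.142, 0.488 and 0.305 in PCOS-MV 1 to 4. Its PCOS libraries lay wholly above both other groups. Of 10 tested factors, 2 rose and 1 fell in PCOS vs control, against 11.9% and 15.6% of all genes tested. In PCOS-MV vs PCOS 1 rose and 2 fell, against 14.3% and 11.4%. With 10 factors these counts are near the shares over all genes, and nothing is read from them. Ppara, the fatty acid sensor, rose from 3.58 ± 0.517 to 10.7 ± 1.42 FPKM (SD, n = 4) and fell by 1.45 (SE 0.19, adjusted p = 0.00115 from limma) in PCOS-MV vs PCOS. Nr5a1, the master regulator of steroidogenic cells, rose by 1.04 and then fell by 0.75, while Cebpb fell by 1.06 and then rose by 0.96. With libraries rescaled by their median ratio or without PCOS 3, 4 factors were called higher in PCOS, and 2 were called lower with the replicate block or without Control 3. The 1 rise in PCOS-MV vs PCOS became 3 with the block and 2 without PCOS-MV 1 or 3.

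**Figure D5:**
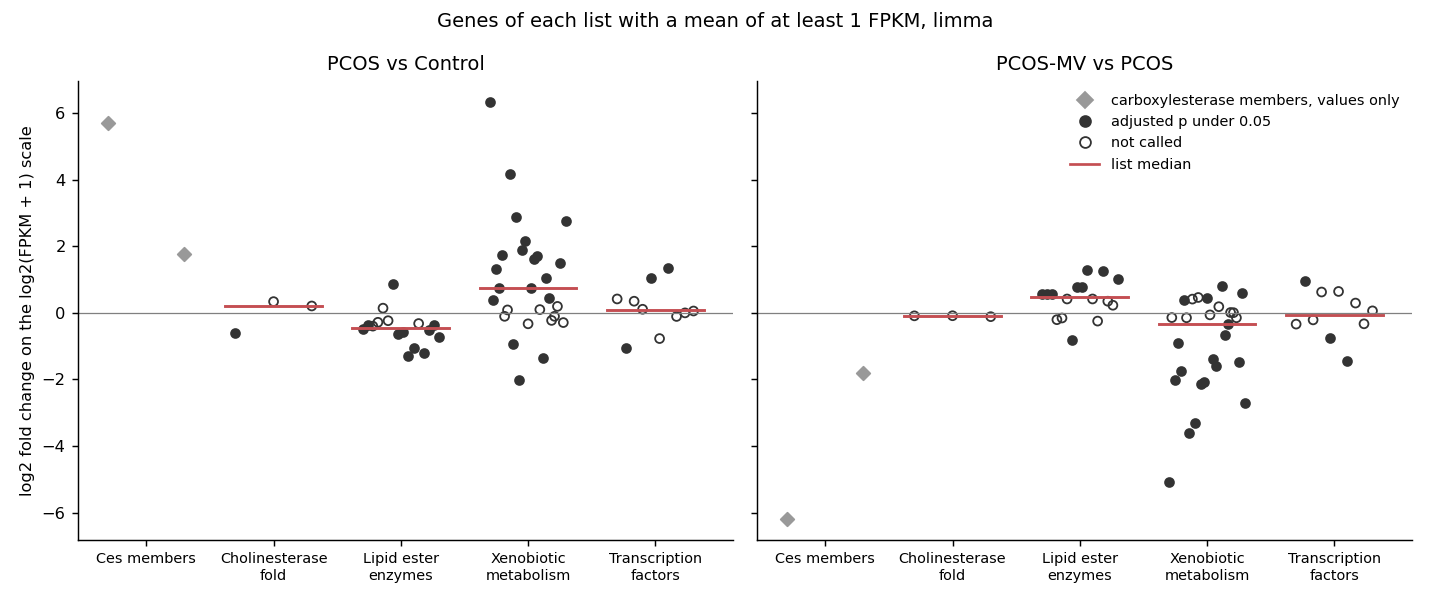
log2 differences (y axis, log2(FPKM + 1) scale) of the genes averaging 1 FPKM or more in 5 lists (x axis), in 1 panel for PCOS vs control and 1 for PCOS-MV vs PCOS, with filled circles for genes at an adjusted p under 0.05 from limma, open circles for the others, red lines at the list medians and diamonds for Ces1d and Ces1f. Ces1d lies at 5.72 and -6.19 and Ces1f at 1.77 and -1.81, the xenobiotic median is above 0 in the first panel and below it in the second, and the lipid ester median is the reverse.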

How the data were processed

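The authors deposited 1 table of FPKM values per gene and library. Per the study's methods, reads were filtered, aligned with HISAT2, counted per gene with featureCounts and converted to FPKM. The submitters' processing notes name STAR 2.5.1b and HTSeq 0.6.0 instead. The genome build is not given in the sources used here. Whether counting used strand is not given either.

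The table repeats a gene's FPKM on each of 26928 transcript lines, and 1 line per gene was kept. Its columns of group means, fold changes and p-values were not used here. The MG columns were taken as the PCOS-MV group. A pseudocount of 1 was added, and log2 values of 2 groups at a time were compared by limma 3.58.1 (R 4.3.3; lmFit and eBayes with trend) for the 13430 genes averaging 1 FPKM or more, with Benjamini-Hochberg adjustment and a threshold of 0.05. This scale understates changes of low genes. The p-values of limma set a group difference against the spread between rats, whose estimate is shared across genes. Exact two-sided permutation tests of 4 against 4 cannot go below 0.0286. The test was checked on simulated data. Python 3.11.15, pandas 2.3.3 and scipy 1.17.1 were used. Promoters came from RefSeq (GRCr8).

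Depth was estimated from the FPKM of genes with 1 transcript, whose product with length peaks at the value of 1 fragment. Members and gene lists were chosen with earlier results of these data known. Named genes were the members, other carboxylesterases, the 5 genes most like Ces1d and 3 most like Ces1f, called neighbours within 200 kb and, per list, up to 4 called genes with the largest change in PCOS-MV vs PCOS, and the text names a few more genes of each list after their values were seen. Alternatives covered the pseudocount, the filter, 1 model for 12 libraries, the replicate block, rescaling and each library left out.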

Additional observations from a re-analysis of the deposited data

Results flagged for a closer look

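For 4 genes, 1 value each stood far from the other 3 libraries of their group, by the gap to the nearest library divided by the range of the group, which exceeded the critical value of Dixon, among 20 groups of 4 in which at least 1 library held 3 fragments. For normally distributed values chance alone gives about 1 such group in 20. The rate for these FPKM values, many of them low, was not computed, so no excess is read from the 4. Ces2c was 1.47 FPKM in Control 3, against 0.0697 to 0.191 in the other control libraries, and Ces2g was 0.437 FPKM in Control 3, against 0.0234 to 0.0750. The summed FPKM of the ciliated oviduct markers was also highest in Control 3, at 22.5, and its part in both values was not tested. LOC679149 was 0.772 FPKM in PCOS-MV 1, against 0.0581 to 0.145 in the other PCOS-MV libraries. AABR07007146.1 was 0.392 FPKM in Control 2, against 0.0962 to 0.111.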

How the results depend on the processing

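Under 13 alternatives, Ces1d had log2 differences of 5.31 to 5.997 for PCOS minus control. For PCOS-MV minus PCOS they were -6.55 to -6.02. For Ces1f the bounds were 1.62 and 2.77, then -3.06 and -1.58, with an adjusted p of 0.00164 to 0.0163 from limma in PCOS-MV vs PCOS, where all fits but the unfiltered one (0.0119) kept Ces1f only through its PCOS libraries. In PCOS-MV vs control neither gene was called under any of the 13. Leaving out each library in turn gave 2762 to 3915 called genes for PCOS vs control, 2445 to 3354 for PCOS-MV vs PCOS and 1 to 4 for PCOS-MV vs control, where 1 was called with all libraries, 4 when Control 3 was left out and 3 when PCOS-MV 1 or PCOS-MV 3 was, and 1 or 2 otherwise. Deviations of libraries with the same replicate number correlated at -0.0534 to 0.216 over the 3 comparisons, so the numbers were not taken as pairs, although 7 of 8 libraries in PCOS-MV vs PCOS correlated best with the library of their own number, a hint from the data only (0 of 8 in PCOS vs control and 2 of 8 in PCOS-MV vs control). With the replicate number as a block, 2905, 3079 and 0 genes were called, against 3684, 3448 and 1, and Ces1f kept its call in PCOS-MV vs PCOS. Of 624 values of single named genes under all alternatives, 4 became called and 6 lost their call, the latter all for Bche. Of the called list genes and neighbours named, Ptch1, Tcf21, Lipe, Pnpla2, Lhcgr, Lipg, Fabp4, Nol3, Tradd and AABR07072639.2 lost a call under at least 1 alternative. Not every named gene was followed one by one, Adipoq among them, so others may have lost a call too. Depth limits the 10 carboxylesterase genes with a mean under 1 FPKM, and how reads shared within the Ces1 cluster were counted was not tested.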
